A study of Homo sapiens with 12 samples.

Results

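Genes that carry H3K36me3 together with H3K27me3 were compared with genes that carry 1 of these marks, in KBM-7, a near-haploid human cell line from chronic myeloid leukaemia. A gene counted as marked when at least 10% of its annotated span lay inside intervals of the mark. Among 16814 protein-coding genes of at least 5 kb, 425 held both marks (2.53%), 7727 held H3K36me3 only (46%), 4885 held H3K27me3 only (29.1%) and 3777 held neither (22.5%). The series has 12 samples of unmodified KBM-7 cells, namely 9 ChIP-seq libraries, 1 for each histone mark, and 3 inputs. All libraries come from this 1 line, grown in IMDM with fetal calf serum and antibiotics, and the labels name no drug treatment and no edited gene. Chromosome 8 and a stretch of chromosome 15 (61 to 90 Mb) are known to be present in 2 copies in this line.

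The name of the H3K36me3 set bears a limit. The labels H3K36me3 and H4K16ac hold the same 45695 intervals, so which antibody made the set cannot be told apart from the file; it is called H3K36me3 here, as labelled. With 1 library per mark and no count or score per interval, no replicate error could be computed and no test was run. The 95% intervals given (Wilson for shares, order statistics for medians) cover counting error over genes only, as does the limit given for a count of 0, which is not a Wilson limit but 3 counts of the total, and the depth per library is unknown. Of 14 myeloid marker genes, 10 had H3K4me3 within 1 kb of a gene end, among them SPI1, RUNX1, GATA2 and CD34, while CD33, CSF2RB, KIT and LMO2 had none. None of the 5 B cell, 5 T cell, 4 erythroid, 4 neuronal or 4 fibroblast markers had it, and of 4 liver markers only CPS1 did.

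H3K36me3 is laid down by SETD2, which travels with elongating RNA polymerase II, and so it covers the bodies of transcribed genes beyond their starts. H3K27me3 is laid down by the Polycomb complex PRC2 through EZH2 or EZH1 and lies over repressed genes, developmental regulators among them. PRC2 works poorly on a histone tail that already carries H3K36me3. H3K4me3 and H3K9ac mark the start sites of active genes, and H3K79me2, made by DOT1L, marks the early part of transcribed bodies.

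The starts of genes that stand for the patterns are shown first, since the place of the start decides on which side of a change-over each mark lies. Each line is the 250 bases before the start given by RefSeq (GRCh38.p14), 5′ to 3′ on the strand of the gene, with every CG dinucleotide in capitals. CG reads the same on both strands. CFAP96 has the highest less covered share among genes with H3K36me3 on the start side, but differs from most of them in that its table start lies inside the gene, in the gap. USP30 and SRPRB stand for genes with H3K27me3 on the start side, ZNF12 and ZNF485 for genes with both marks on the same sequence, and SCAPER and RBFOX1 for genes with H3K36me3 only and H3K27me3 only.
CFAP96 (chr4:185426004-185426253, plus strand): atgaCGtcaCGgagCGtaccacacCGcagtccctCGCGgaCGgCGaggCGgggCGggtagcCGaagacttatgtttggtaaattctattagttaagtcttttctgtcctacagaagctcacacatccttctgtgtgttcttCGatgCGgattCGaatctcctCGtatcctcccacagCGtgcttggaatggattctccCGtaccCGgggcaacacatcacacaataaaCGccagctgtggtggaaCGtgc
USP30 (chr12:109022839-109023088, plus strand): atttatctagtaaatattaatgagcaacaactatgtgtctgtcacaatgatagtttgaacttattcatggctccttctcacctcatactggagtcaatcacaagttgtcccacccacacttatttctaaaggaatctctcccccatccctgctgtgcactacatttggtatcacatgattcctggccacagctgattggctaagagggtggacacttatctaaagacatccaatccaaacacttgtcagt
SRPRB (chr3:133805565-133805814, plus strand): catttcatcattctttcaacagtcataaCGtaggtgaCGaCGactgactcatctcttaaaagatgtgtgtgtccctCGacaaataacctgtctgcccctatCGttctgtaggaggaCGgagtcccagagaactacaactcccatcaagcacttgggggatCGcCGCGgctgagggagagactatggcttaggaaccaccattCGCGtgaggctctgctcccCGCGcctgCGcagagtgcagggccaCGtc
ZNF12 (chr7:6706948-6707197, minus strand): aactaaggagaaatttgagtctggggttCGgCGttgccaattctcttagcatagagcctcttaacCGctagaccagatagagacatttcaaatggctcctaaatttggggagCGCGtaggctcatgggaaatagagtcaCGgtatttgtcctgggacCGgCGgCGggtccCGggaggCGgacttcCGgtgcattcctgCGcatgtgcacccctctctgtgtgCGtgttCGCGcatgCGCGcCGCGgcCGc
ZNF485 (chr10:43606188-43606437, plus strand): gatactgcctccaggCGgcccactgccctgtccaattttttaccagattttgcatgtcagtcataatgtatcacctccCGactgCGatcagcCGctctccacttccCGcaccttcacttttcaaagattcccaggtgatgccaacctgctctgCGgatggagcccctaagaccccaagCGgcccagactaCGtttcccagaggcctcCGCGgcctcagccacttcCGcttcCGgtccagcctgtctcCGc
SCAPER (chr15:76905341-76905590, minus strand): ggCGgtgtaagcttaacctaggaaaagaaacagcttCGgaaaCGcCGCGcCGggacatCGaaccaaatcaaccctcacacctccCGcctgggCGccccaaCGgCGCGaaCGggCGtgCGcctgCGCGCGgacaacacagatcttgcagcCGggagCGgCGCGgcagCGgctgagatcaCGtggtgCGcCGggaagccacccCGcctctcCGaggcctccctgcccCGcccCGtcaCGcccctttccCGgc
RBFOX1 (chr16:6018774-6019023, plus strand): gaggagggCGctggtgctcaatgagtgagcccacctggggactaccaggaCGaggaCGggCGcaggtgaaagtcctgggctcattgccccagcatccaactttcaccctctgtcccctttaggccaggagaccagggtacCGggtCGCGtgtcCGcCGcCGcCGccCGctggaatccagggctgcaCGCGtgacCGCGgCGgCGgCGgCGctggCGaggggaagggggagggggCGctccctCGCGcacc

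The CFAP96 sequence holds 20 CG and the SRPRB sequence 15, and 38.8% and 45.6% of their bases lay inside H3K4me3 intervals. The USP30 sequence holds 0 CG, and 100% of it lay inside H3K27me3. ZNF12 holds 21 CG with 1.2% of its bases in H3K4me3 and none in H3K27me3. ZNF485 holds 13 CG with 0% in H3K4me3 and 100% in H3K27me3. SCAPER holds 32 CG with 44% of its bases in H3K4me3, and RBFOX1 holds 24 CG with 100% of its bases in H3K27me3. Over the genes with both marks and a promoter in the table, the median was 18 CG (16 to 19, n = 360), against 22 for H3K36me3 only (n = 6476) and 9 for H3K27me3 only (n = 3726). At least 10 CG stood in 81.9% of promoters of genes with both marks, in 89.4% of those with H3K36me3 only, in 49.4% of those with H3K27me3 only and in 71.7% of all 13483 promoters.

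Both marks in 1 gene were uncommon. If the marks were placed over genes independently of each other, 2574 genes would hold both, and the 425 observed (2.53%, 2.30 to 2.78) are 0.165 times that number. Few bases lay under both marks. H3K36me3 covered 242 Mb in 37321 regions and H3K27me3 914 Mb in 117702 regions, yet 2.87 Mb in 715 regions lay under both. This is 1.18% of the H3K36me3 bases and 0.313% of the H3K27me3 bases. Just inside the 10% limit lay APOL6, RHOBTB2, CREBZF, ABCD3 and KHDC1, whose less covered mark took 10.0 to 10.1% of the span. Just outside lay LOC122539214, EDDM13 with LOC124900420 (1 shared span), SLC19A1 and CGAS, with 9.76 to 9.99%.

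The 425 genes fell into 2 kinds with few genes between. The measure was the sequence under both marks as a percent of the less covered mark in the gene. It was exactly 0 in 170 genes and at least 90% in 187 genes. The 171 genes below 10% (1.02% of all genes) are called apart, the 187 genes at 90% or more (1.11%) coincident, and the other 67 (0.398%) intermediate; these limits were chosen after the values were seen. When a mark had to cover 5% of the span, 325 genes were apart and 218 coincident, and at 25% it was 29 and 141. Genes with marks apart had a median length of 71.1 kb (59.4 to 82.1). They held both marks over small parts of the span, H3K36me3 on a median of 20.5% and H3K27me3 on 24.5%. In the 27 of them that no other annotated gene overlaps, the median length was only 26286 bp (16254 to 76054). Coincident genes had a median length of 23.2 kb (20.9 to 26.1), with H3K36me3 on 86.1% and H3K27me3 on 42.0%. For genes with 1 mark the median length was 33.7 kb (H3K36me3 only) and 43.2 kb (H3K27me3 only), and their own mark covered a median of 59.5% and 79.7% of the span.

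**Figure D1:**
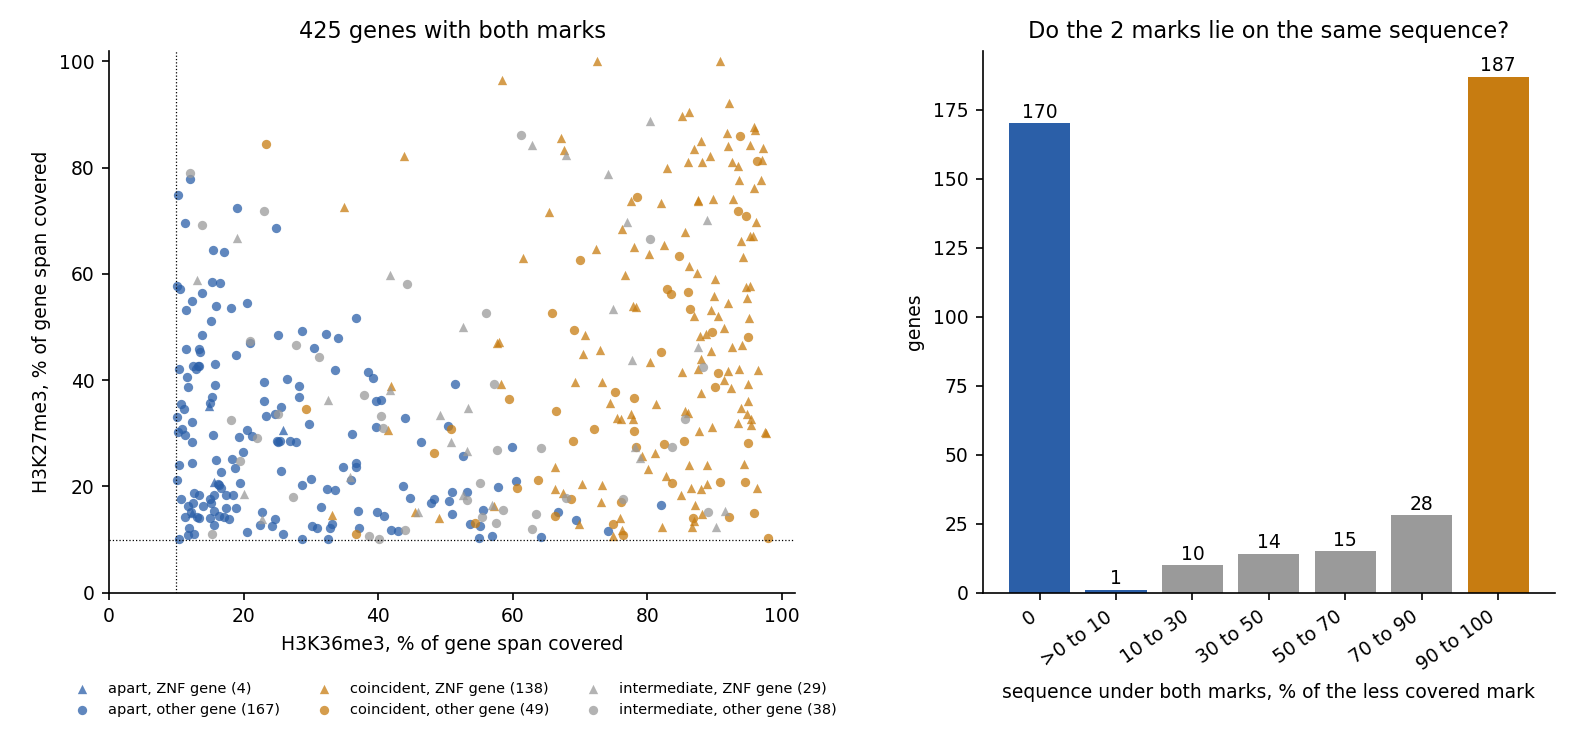
Left, each point is 1 of the 425 genes with both marks, by the percent of its span under H3K36me3 (x) and under H3K27me3 (y), coloured by kind, with genes named ZNF as triangles; dotted lines mark the 10% limit. Right, number of genes by the sequence under both marks as a percent of the less covered mark, with 170 genes at 0 and 187 at 90 to 100%.

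Most coincident genes were zinc finger genes. Symbols made of ZNF and digits mostly name C2H2 zinc finger proteins, many of which carry a KRAB domain and silence transposable elements. The genes were taken by symbol, and their domains were not looked up. Of 459 such genes, 171 held both marks, which is 37.3% (33.0 to 41.8) against 2.53% of all genes. Of these, 4 were apart, 138 coincident and 29 intermediate. A further 159 ZNF genes held H3K36me3 only and 61 H3K27me3 only. ZNF genes thus made up 4 of the 171 genes with marks apart (2.34%) and 138 of the 187 coincident genes (73.8%). On chromosome 19, where these genes lie in clusters, 122 of 233 ZNF genes (52.4%) held both marks, and on the other chromosomes 49 of 226 (21.7%). ZNF genes held 62.2% of all sequence under both marks, and chromosome 19 held 47.0% of it. Reads from near-identical family members can be placed on the wrong copy, and their part in these intervals was not tested.

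ZNF12 (chr7:6688433-6706947) showed the coincident pattern in its simplest form. A single segment of each mark covered the same 17.1 kb of its 18.5 kb span and left free the stretch next to its start. ZNF485 (chr10:43606438-43617904) had H3K36me3 on 90.7% and H3K27me3 on 100% of its 11.5 kb. ZNF121 on chromosome 19 had H3K36me3 on 95.8% and H3K27me3 on 87.6%. On chromosome 12, ZNF140 had 96.0% and 87.0% and nearby ZNF10 had 91.9% and 86.6%, again of H3K36me3 and H3K27me3. Next by the less covered mark came ZNF180, ZNF354B, ZNF550, ZNF234, ZNF317, ZNF222 and ZNF283, at 86.2 down to 83.7%. All 12 of these genes, which had the highest less covered share, are zinc finger genes. H3K27me3 lay in more pieces than H3K36me3 in several of them. In ZNF140, 6 segments of H3K27me3 faced 1 of H3K36me3.

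Most starts of coincident genes carried H3K4me3 and H3K9ac. H3K4me3 lay within 1 kb of the start in 143 of 169 coincident genes with a strand in the table, 84.6% (78.4 to 89.3), against 89.3% of H3K36me3-only genes and 9.93% of H3K27me3-only genes. H3K9ac lay there in 91.7%, against 91.9% and 11.5%. H3K79me2 lay at the start in 56.8% of coincident genes and in 70.7% of H3K36me3-only genes. Along coincident genes, H3K36me3 covered on average 11.5% of the first of 20 equal bins and 89.5% of the bin just past the middle, and H3K27me3 covered 11.2% and 52.5% of the same bins. Coincident genes also lay next to each other. Of 374 neighbours of coincident genes, 136 (36.4%) were coincident too, against 1.11% of all genes, and the spans of 27 of the 187 overlap that of another gene with both marks, so that they share sequence.

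The other 49 coincident genes were looked up after their values were seen. By their symbols, 12 of them are further zinc finger genes, such as ZNF354B, ZNF585A, ZFP28, ZSCAN32 and ZKSCAN8. Several others were ANKLE2 and PGAM5, neighbours on chromosome 12 that serve nuclear envelope assembly and mitochondrial quality control. ANKLE2 had H3K36me3 on 96.3% and H3K27me3 on 81.2% of its span, and PGAM5 had 86.1% and 56.6%. CTBP1, a transcriptional corepressor, had 83.5% and 56.2%, and MAPK9, a JNK kinase, had 86.3% and 53.4%. PPP2R1A, the scaffold of the phosphatase PP2A, had 95% and 48.1%. The proto-oncogene MYC, on chromosome 8, had H3K36me3 on 65.9% and H3K27me3 on 52.6% of its 7.52 kb. TLR2, a receptor for bacterial lipoproteins, had 66.4% and 34.1%.

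In genes with marks apart, each mark kept to its own side. A single change-over with every marked base on its own side was found in 163 of 171 genes (95.3%). The marks were separated by an unmarked gap with a median of 11 kb (8.5 to 13.5), with quartiles of 5.5 and 21.3 kb. Only 6 of the 171 gaps were 1 kb or less, on intervals that start on a 500 bp grid. The gap was centred at a median of 54.8% of the span from the start (48.6 to 59.8, n = 134 genes with a strand). Another annotated gene overlapped the span of 144 of the 171 genes (84.2%), against 50.8% of coincident genes, 60.9% of H3K36me3-only genes and 58.9% of H3K27me3-only genes. A mark inside the span can thus belong to that other gene, and its part was not tested. In the 27 genes that no other annotated gene overlaps, the gap had a median of 6.5 kb (4 to 9.5).

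**Figure D2:**
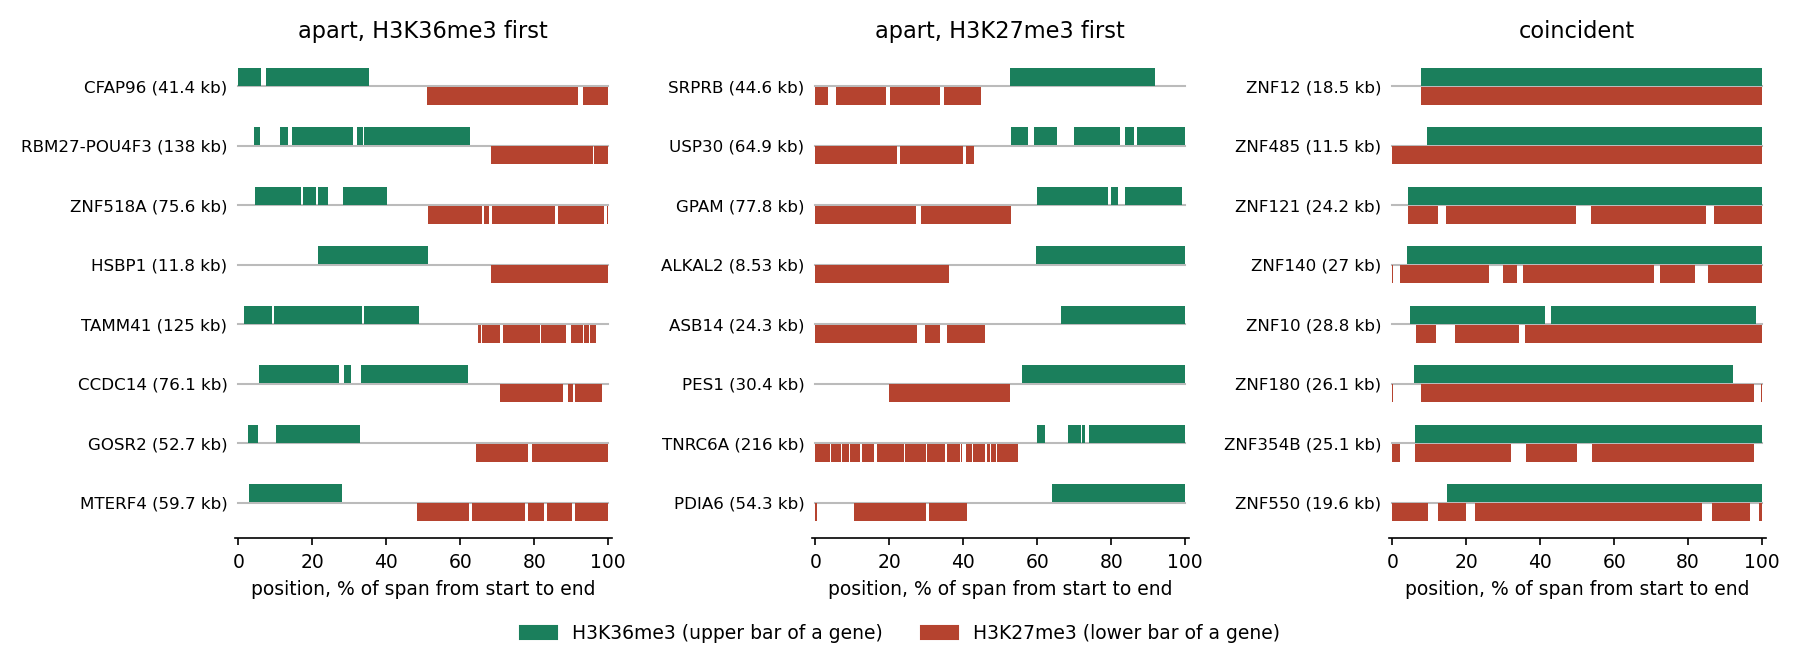
Segments of H3K36me3 (green, upper) and H3K27me3 (red, lower) along 8 genes of each set, from annotated start (0%) to annotated end (100%) of the span; the 8 have the highest less covered share of the set. The marks are separated by a gap in the 16 genes with marks apart, and lie on the same sequence in the 8 coincident genes.

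Of the 134 genes with marks apart and a strand, 46 (34.3%) had H3K36me3 on the side of the annotated start and 88 had H3K27me3 there, 65.7% (57.3 to 73.2). This order depended on where a gene starts. RefSeq annotates the span from the farthest end of any transcript, and the start given in the promoter table lay more than 1 kb inside that end in 6 of the 46 genes with H3K36me3 first and in 46 of the 88 with H3K27me3 first. Where the table start lay within 1 kb of the annotated end, 40 genes had H3K36me3 first and 42 had H3K27me3 first, 51.2% (40.6 to 61.7). With the start taken from H3K4me3 at exactly 1 end of the gene, H3K27me3 came first in 28.6% of 70 genes (19.3 to 40.1). Genes without a strand are included there. Taking the start from H3K4me3 drops all other genes, and H3K4me3 at the annotated start was less frequent with H3K27me3 first. The lower share therefore cannot be told apart from the loss of those genes.

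The marks of active starts lay in different places in the 2 orders. With H3K36me3 first, H3K4me3 lay within 1 kb of the annotated start in 37 of 46 genes (80.4%) and within 2 kb of the gap in 3 (6.52%). With H3K27me3 first, it lay at the annotated start in 18 of 88 genes (20.5%) and at the gap in 56 (63.6%, 53.2 to 72.9). H3K79me2 showed the same split, at the annotated start in 27 of 46 and 3 of 88 genes, and at the gap in 3 of 46 and 44 of 88 genes. The table start itself fell within 2 kb of the gap in 2 of 46 genes and in 40 of 88. The median gap was 12.8 kb (8.5 to 18.0) with H3K36me3 first and 9.75 kb (7.5 to 12.5) with H3K27me3 first.

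H3K4me3 at the gap was also seen where the table gives no start there. Among the 42 genes with H3K27me3 first whose table start lay within 1 kb of the annotated end, H3K4me3 lay at the gap in 19 (45.2%, 31.2 to 60.1), although the table start was near the gap in 2. Among the 46 whose table start lay farther inside, it lay at the gap in 37 (80.4%). Over all 171 genes, H3K4me3 lay at the gap in 74, a count that searches the whole gap and 2 kb on each side. In windows of equal size, H3K4me3 lay within 2 kb of the middle of the gap in 36 genes (21.1%), of the middle of the longest H3K36me3 segment in 4 and of the middle of the longest H3K27me3 segment in 6. In the 27 genes overlapped by no other annotated gene, 22 had a strand, and H3K4me3 lay at the gap in 0 of 7 genes with H3K36me3 first, which allows a share of up to 42.9%, and in 9 of 15 with H3K27me3 first.

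**Figure D3:**
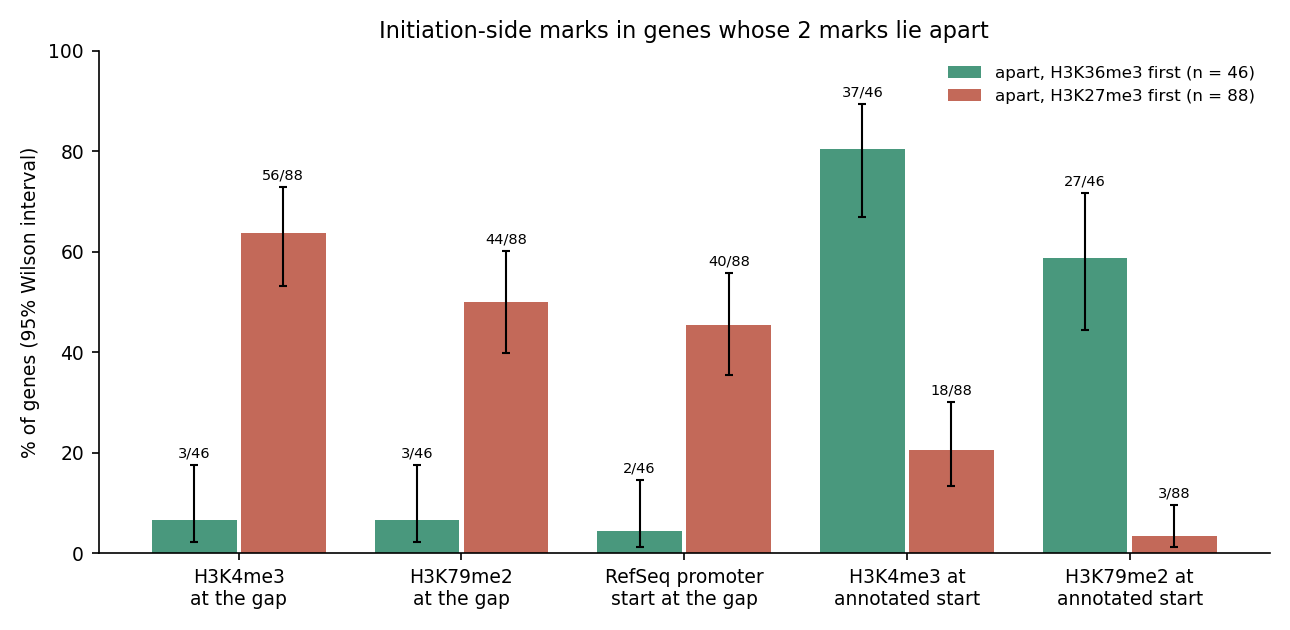
Percent of genes with H3K4me3, H3K79me2 or the RefSeq promoter start within 2 kb of the gap, and with H3K4me3 or H3K79me2 within 1 kb of the annotated start, for genes with H3K36me3 first (green, 46 genes) and H3K27me3 first (red, 88 genes); bars have 95% Wilson intervals and counts. H3K4me3 at the gap is at 6.52% with H3K36me3 first and 63.6% with H3K27me3 first.

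Among genes with H3K36me3 on the start side, CFAP96 (chr4:185408434-185449826) had H3K36me3 on 34.0% and H3K27me3 on 47.9% of its span with a gap of 6.5 kb. Its table start lay 17.8 kb inside the annotated end, in the gap, where H3K4me3 lay too. HSBP1, which binds heat shock factor, had 29.8% and 31.8% with a gap of 2 kb, and TAMM41, an enzyme of mitochondrial cardiolipin synthesis, had 46.4% and 28.4% with a gap of 20 kb. ZNF518A had 30.4% and 46.0%. RBM27-POU4F3, a locus that joins the names of an RNA-binding protein and of a developmental transcription factor of hair cells, had H3K36me3 on 50.3% and H3K27me3 on 31.3% of its span. HSBP1, TAMM41, ZNF518A and RBM27-POU4F3 had H3K4me3 at the annotated start and none within 2 kb of the gap.

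Among genes with H3K27me3 on the start side, SRPRB (chr3:133784023-133828574), a subunit of the receptor for the signal recognition particle, had H3K36me3 on 39.3% and H3K27me3 on 40.4% of 44.6 kb. Its table start lay 21.8 kb inside the annotated end, in a gap of 3.5 kb that held H3K4me3. GPAM, the first acyltransferase of triglyceride synthesis, had 36.6% and 51.6%, with the table start 43.9 kb inside and in the gap. TNRC6A, a partner of Argonaute in silencing by microRNAs, had 32.3% and 48.7%, with the table start 119 kb inside and in the gap. PES1, a ribosome assembly factor, had 44.0% and 32.9% with the table start 15.1 kb inside.

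USP30 (chr12:109023089-109088023), a deubiquitinase of mitochondria, differed in that its table start was the annotated end. It lay in H3K27me3 and had no H3K4me3, while H3K4me3 lay at the gap of 6.5 kb, 27.9 kb farther along the gene. USP30 had H3K36me3 on 38.5% and H3K27me3 on 41.4% of its span. ALKAL2, a ligand of the receptor ALK, had 40.3% and 36.2% over 8.53 kb, and the nearest H3K4me3 lay 16 kb from its gap. JRK and UQCRB on chromosome 8 had less covered shares of 39.3 and 36.1% but no strand in the table.

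The 6 longest genes with both marks had them apart. CELF2, an RNA-binding regulator of splicing that spans 874 kb on chromosome 10, had H3K27me3 on 58.2% of the span, first, and H3K36me3 on 16.5%, after a gap of 159.5 kb that held H3K4me3. PHACTR1, a regulator of actin, had the same order with a gap of 85 kb. TASP1, the protease that cleaves MLL, had the opposite order, with H3K36me3 on 11.4% and H3K27me3 on 45.8%. PRELID2, STK3 (a Hippo pathway kinase) and C12orf42 had 17.1, 32.8 and 15.7% of H3K36me3 and 14.2, 12.1 and 39.2% of H3K27me3. Most change-overs within 1 gene, 7 each, were counted in ZNF891, ZNF717 and FARP2, and 5 each in CTBP1, ZNF529 and ZNF124. This number counts switches of mark among segments ordered by their middles, also where segments of the marks overlap. In coincident genes it thus does not show marks that alternate along the gene. ZNF717 and FARP2 were intermediate and the other 4 coincident.

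**Figure D4:**
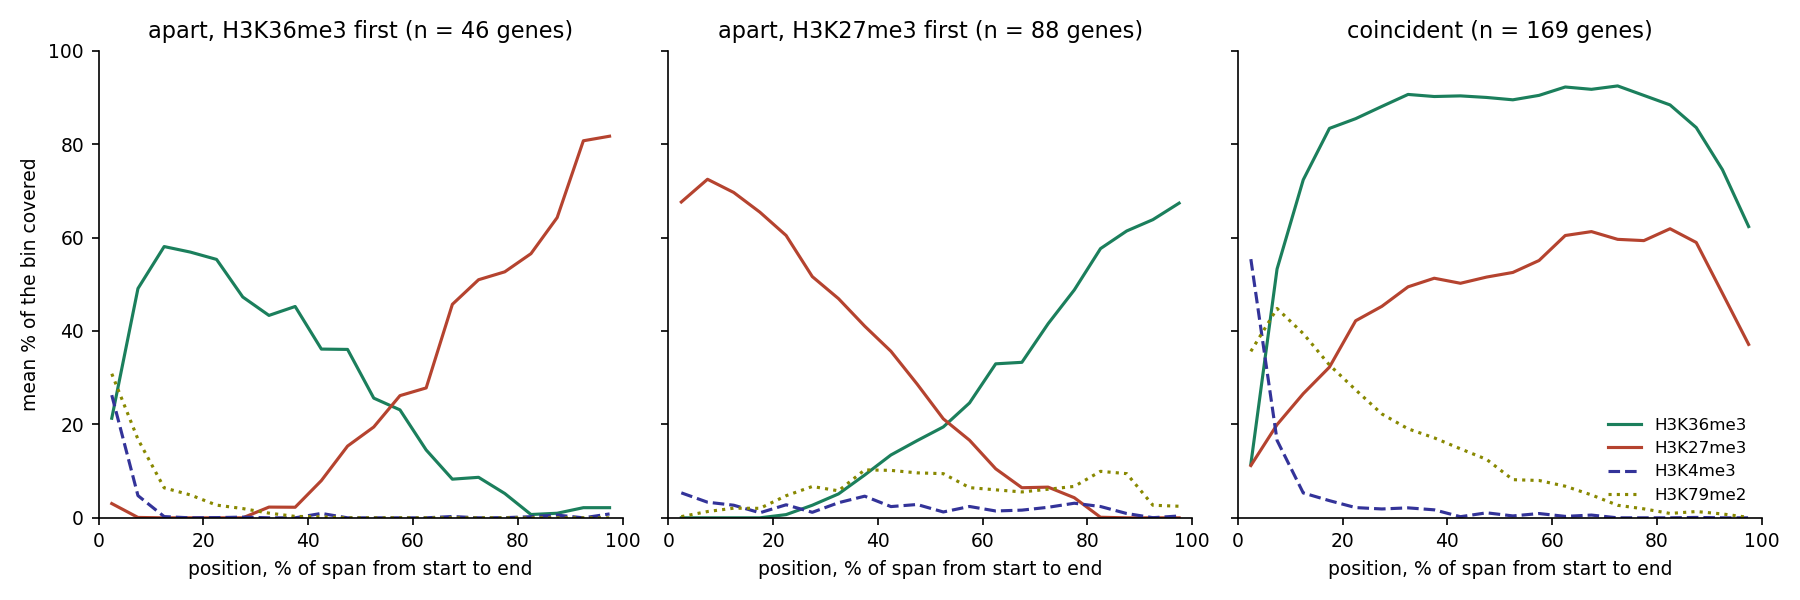
Mean percent of each of 20 equal bins of the span covered by H3K36me3, H3K27me3, H3K4me3 and H3K79me2, from annotated start to end, in genes with marks apart and H3K36me3 first, with H3K27me3 first, and in coincident genes. With H3K36me3 first, H3K4me3 and H3K79me2 are highest in the first bin. In coincident genes H3K4me3 is highest in the first bin (55.4%) and H3K79me2 in the second (44.8%, against 35.6% in the first). With H3K27me3 first, H3K79me2 reaches at most 10.3%.

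Averaged over genes with H3K36me3 first, H3K36me3 covered 58.1% of the third bin and 2.17% of the last, and H3K27me3 covered 0% of the third bin and 81.7% of the last. With H3K27me3 first, H3K36me3 covered 0% of the first bin and 67.4% of the last, and H3K27me3 67.6% and 0%. The genes were sorted by the order of these 2 marks, so the contrast between first and last bins follows from the sorting and is no separate result.

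On chromosome 8, which KBM-7 holds in 2 copies, 17 of 590 genes had marks apart (2.88%, 1.81 to 4.57), and on the 2-copy stretch of chromosome 15 it was 5 of 240 (2.08%, 0.893 to 4.78), against 149 of 15984 genes elsewhere (0.932%, 0.795 to 1.09). Coincident genes made up 6 of 590 and 0 of 240 genes there, where a count of 0 allows a share of up to 1.25%, and 1.13% of genes elsewhere. Without chromosome 19, 68 of 14771 genes elsewhere were coincident (0.460%, 0.363 to 0.583), so that the share of chromosome 8 (1.02%, 0.467 to 2.20) was lower than the first value and higher than the second. Marks apart elsewhere came to 0.955% without chromosome 19. Copy number and chromosome cannot be told apart here. Among single chromosomes, both marks were most frequent on chromosome 19 (141 of 1213 genes, 11.6%), where 8 genes were apart and 113 coincident.

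Over all genes, 2.53% held both marks, 46% H3K36me3 only and 29.1% H3K27me3 only, and the counts in gene lists chosen by function are read against these shares. Both marks were held by 2 of 33 genes of Polycomb complexes, or 6.06%, and 27 others held H3K36me3 only. The genes with both were BMI1, a core subunit of PRC1, with H3K36me3 on 28.3% and H3K27me3 on 36.8% of its span and marks apart, and PCGF3, another PRC1 subunit, with 76.4% and 10.9% and marks coincident. Of 49 cell cycle and replication genes, 46 held H3K36me3 only (93.9%) and 1 both (2.04%). This was CCND2, encoding cyclin D2, with marks apart (12.7% and 11.1%), whereas CCND1, encoding cyclin D1, held H3K27me3 only, on 92.5%. Of 38 splicing factors, 37 held H3K36me3 only and none both.

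Developmental and neuronal genes were mostly under H3K27me3. Of 69 developmental transcription factors, 49 held H3K27me3 only (71.0%, against 29.1% of all genes), 9 H3K36me3 only (13.0%, against 46%) and 1 both (1.45%, against 2.53%). The 1 with both was LHX4, a pituitary regulator, with H3K36me3 on 10.9% and H3K27me3 on 30.9%. Of 77 synaptic genes, 55 held H3K27me3 only (71.4%) and none H3K36me3 only or both, and of 74 cadherins and protocadherins it was 48 (64.9%) and none. Of 23 imprinted genes, 1 (4.35%) held both, GNAS, the stimulatory G protein locus, with 17.1% and 64.0%, apart. Of 357 solute carrier genes, 135 held H3K27me3 only (37.8%), 127 H3K36me3 only (35.6%) and 5 both (1.40%), among them SLC10A1, SLC26A5 and SLC12A7 with marks apart and SLC66A2 with marks coincident.

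Genes with 1 mark set the scale. By bases covered, H3K36me3 was most extended in VPS13B (634 kb, 73.3% of the span), SCAPER, SPIDR, DOCK2, SMYD3 and NBAS, and H3K27me3 in RBFOX1 (1511 kb, 61.1%), NRXN3, DAB1, CDH13, ASIC2 and KAZN. VPS13B and SPIDR lie on chromosome 8, and SCAPER lies on the stretch of chromosome 15 that KBM-7 also holds in an extra copy. Together these stretches hold 5.32% of H3K36me3-only genes. The part of copy number in this ranking was not tested. VPS13B is a lipid transfer protein of the Golgi, DOCK2 an activator of Rac in blood cells, RBFOX1 a neuronal splicing regulator and NRXN3 a neurexin of synapses. By the rule of these classes the other mark covers less than 10%; NBAS lay just under that limit, with H3K27me3 on 9.66% of its span.

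Neighbouring genes of the same class were joined into blocks. Only protein-coding genes of at least 5 kb were counted, so shorter genes between neighbours were passed over. There were 3411 blocks of H3K36me3-only genes with a mean of 2.27 ± 1.77 genes (SD over blocks) and a median extent of 89.8 kb (85.1 to 96.0). H3K27me3-only genes formed 2477 blocks with a mean of 1.97 ± 1.75 genes and a median extent of 121 kb (112 to 131). Blocks of 1 gene made up 46.3% of the H3K36me3 and 54.5% of the H3K27me3 blocks. The neighbour of an H3K36me3-only gene was H3K36me3-only in 55.9%, against 46% of all genes. The neighbour of an H3K27me3-only gene was H3K27me3-only in 49.4%, against 29.1% of all genes.

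By number of genes, the largest H3K36me3 block ran from EGLN3 to PAX9 on chromosome 14, with 15 genes in 2.76 Mb, followed by IFNAR2 to MRPS6 on chromosome 21 and TRIM26 to TUBB on chromosome 6 with 14 each. AFTPH to PPP3R1 and BZW1 to STRADB, both on chromosome 2, had 13 each, and AFTPH to PPP3R1 extended farthest of all H3K36me3 blocks, over 3.73 Mb. Looked up after their values were seen, the interferon receptor genes of the IFNAR2 block were IFNAR1 (74.7% H3K36me3), IFNAR2 (46.2%), IFNGR2 (83.8%) and IL10RB (47.9%). The PAX9 body had H3K36me3 on 32.1% without H3K4me3 at its annotated start. By number of genes, the largest H3K27me3 block was the clustered protocadherins from PCDHA1 to PCDHGA8 on chromosome 5, with 29 genes in 0.727 Mb, while H3K27me3 blocks extended over up to 5026 kb. Keratin genes followed, from KRT86 to KRT78 (22 genes) and from KRT222 to HAP1 (18), and then LRRC4B to KLK14 (18), which ends in kallikreins, and LIPE to TEX101 (16). Clustered protocadherin genes share exons, so the members of that block are not independent.

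**Figure D5:**
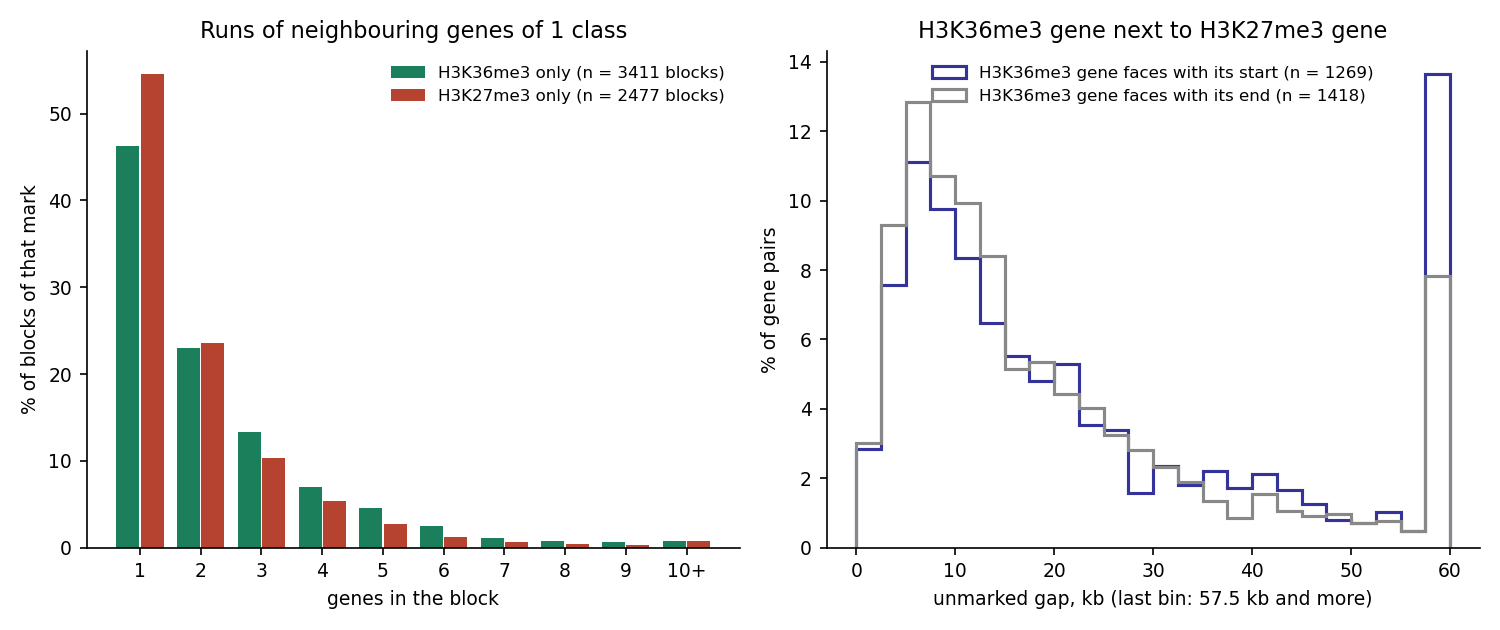
Left, percent of blocks of each mark by number of neighbouring genes in the block, for H3K36me3-only (green, 3411 blocks) and H3K27me3-only genes (red, 2477 blocks). Right, percent of directly neighbouring opposite genes by the width of the gap between the marks in kb, by whether the H3K36me3 gene faces with its start (blue, 1269 pairs) or its end (grey, 1418 pairs); single genes make up 46.3% of H3K36me3 and 54.5% of H3K27me3 blocks.

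Blocks of opposite mark met 4236 times. Counting only genes of at least 5 kb, they touched directly in 3223 cases (76.1%). They met through 1 or more genes with both marks in 155 (3.66%) and through genes with neither in 858 (20.3%). In direct pairs the gap between the marks had a median of 14.5 kb (14 to 15), against 11 kb inside genes with marks apart. Of 2687 pairs with a strand, the H3K36me3 gene turned its start to the H3K27me3 gene in 1269 (47.2%), against 51.2% of starts turned to another H3K36me3 gene. H3K4me3 lay within 2 kb of the gap in 91.3% of pairs with the start turned to the H3K27me3 gene and in 5.64% of pairs with the end turned to it. H3K79me2 lay there in 80.0% and 2.89%, and the median gap was 16.5 kb (15 to 18) and 13.5 kb (12.5 to 14.5). Over all H3K36me3-only genes, H3K4me3 lay within 1 kb of the start in 89.3% and of the opposite end in 3.27%. For H3K79me2 it was 70.7% and 4.22%. The contrast between start and end is thus not particular to pairs of opposite genes. For genes with marks apart, the neighbour on the H3K36me3 side was H3K36me3-only in 52.0% (44.6 to 59.4) and H3K27me3-only in 28.1% (21.9 to 35.2), near the 46% and 29.1% of all genes. The neighbour on the H3K27me3 side was H3K36me3-only in 25.7% and H3K27me3-only in 56.7%.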

How the data were processed

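The deposited data are 1 file of called intervals, in which a line gives the position of an interval and the mark it belongs to; the authors gave no count or signal with them. Per the submitters' processing notes, GRCh38 was the build, and cutadapt, Bowtie2 and MACS were used; which version, threshold or input applied is not given in the sources used here. Names that match no sample (2, of which 1 is None) were not used. Starts of H3K36me3 and H3K27me3 intervals fall on a 500 bp grid, and H3K27me3 was mostly called (84.3%) in overlapping windows of 1000 bp. Intervals of a mark that touch were joined, and no gap or boundary is known better than this grid.

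Genes came from a RefSeq table of GRCh38 with 19974 protein-coding genes on chromosomes 1 to 22 and X. Strand came from the RefSeq promoter table (GRCh38.p14), which matched 13483 of the 16814 genes of at least 5 kb. The other 3331, all those of chromosome 8 included, entered no result that needs a start, except where the start was taken from H3K4me3. The change-over of a gene is the point that puts most marked bases on their own side. The gap is the unmarked stretch between the nearest segments there. Where 1 side of that point holds no segment of its mark, the gap runs from the end of the span to the nearest segment. Examples are PGAM5, ZNF124, ZNF717, ZNF317, ZNF222, PPP2R1A and MYC. Blocks are runs of neighbouring genes of 1 class, in order of the middle of their spans, among protein-coding genes of at least 5 kb. Shorter genes and genes of other types between them were passed over. The scripts (Python 3.11.15, numpy 2.4.6, pandas 2.3.3) were tested on simulated data.

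The members and lists were chosen with earlier results of these data known. The genes named are, by rule, the 12 with the highest less covered share, the 6 longest, the 6 with the most change-overs, those next to the 10% limit, the first of each order, the 6 with the most bases covered in each class of 1 mark, the blocks with the most genes, the list members with both marks and, where a list holds few with 1 of the single marks, those; markers check the cell type, and other genes were looked up afterwards. Alternatives changed the limit, the gene length, the joining, the minimum region, the span, overlapping genes and the 2-copy chromosomes. Some genes that the rule names are not reported here.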

Additional observations from a re-analysis of the deposited data

How the results depend on the processing

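Over all 425 genes with both marks, coincident ones included, the centre of H3K36me3 lay nearer the start in 53.3% of 360 genes, the change-over at 48.3% of the span and the gap had a median of 2052 bp. Only in the genes with marks apart, a set chosen after seeing the data, these were 34.3%, 54.8% and 11000 bp. The gaps given for all genes with both marks, here and below, include stretches from an end of the span to the first marked base. The change-over had quartiles of 14.4 and 82.0% of the span over all 360 genes, and of 3.70 and 99.1% in the 169 coincident ones. The median of 48.3% therefore does not show that marks change over in the middle of genes. With the start taken from H3K4me3 at exactly 1 end, which drops all other genes and takes in those without a strand, H3K36me3 was nearer the start in 69.0%. In genes with marks apart H3K27me3 then came first in 28.6%. With the RefSeq promoter start within 1 kb of the annotated end, also added after seeing the data, it came first in 51.2%. Under the other alternatives it came first in 64.3 to 68.2% of genes with marks apart. With a limit of 25%, 205 genes held both marks, 29 of them apart, with a median length of 23.4 kb, H3K4me3 at the start in 77.1%, H3K36me3 nearer the start in 59.8% and a gap of 915 bp. H3K36me3-only genes then had a median of 32.4 kb, H3K4me3 at the start in 90.9%, and blocks of 1.96 genes and 70.3 kb, and H3K27me3-only blocks held 1.90 genes. With a limit of 5%, 325 genes were apart, genes with both marks had a median of 44.6 kb and a gap of 4573 bp, and H3K36me3-only blocks held 2.40 genes and 97.8 kb. Among genes overlapped by no other annotated gene, of which there are fewer (6812), 143 held both marks (27 apart, 92 coincident), 3025 H3K36me3 only and 2009 H3K27me3 only. Their median lengths were 21.8, 24.7 and 20.2 kb, H3K4me3 lay at the start in 76.2, 92.6 and 5.12%, H3K36me3 was nearer the start in 61.9% and the gap was 1104 bp. Their blocks held 2.09 genes and 66.2 kb for H3K36me3 and 1.85 genes and 60.5 kb for H3K27me3. With genes of at least 10 kb, median lengths were 40.5 kb (H3K36me3 only) and 55.4 kb (H3K27me3 only), H3K4me3 lay at the start of 11% of H3K27me3-only genes, and blocks extended over 107 kb (H3K36me3) and 135 kb with 1.86 genes (H3K27me3). With genes of neither mark skipped, blocks held 3.49 genes and 158 kb for H3K36me3 and 2.22 genes and 153 kb for H3K27me3. With only regions of at least 2 kb, H3K36me3 blocks held 2.20 genes, as they did with the outer 2 kb of each span left out, where the gap was 500 bp. Without genes named ZNF, 254 genes held both marks. In all, 52 values moved and 116 stayed within their interval or within 1.5 times the count; the cause was not tested. No paired analysis was possible because each mark has 1 library and no test was run. Without read depth, a gene or gap listed as unmarked may hold signal below the authors' threshold.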
